A study of Mus musculus with 8 samples.

Results

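The 44 genes examined encode the machinery through which mammalian cells read amino acids and energy: the mTOR complexes, the TSC complex with Rheb, the Rag GTPases and their Ragulator anchor, the folliculin complex, GATOR1, GATOR2, KICSTOR, AMPK with its upstream kinase, and the S6 kinases and 4E-BPs. A peak of N6-methyladenosine (m6A) was taken as theirs when the deposited peak list named the gene. By this rule 35 of the 44 genes carried a peak in at least 1 library, among 9779 genes with a peak, and they held 120 of 38705 peaks. Joining peaks that overlapped between libraries gave 69 merged regions on these genes, of 21168 in all.

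The peaks came from MeRIP-seq, in which fragmented mRNA is pulled down with an m6A antibody (IP) and sequenced beside the unselected RNA (input). The cells were mouse embryonic fibroblasts (MEFs) from wild type C57BL/6 embryos of 13.5 dpc, at passages 5 to 6, and all groups shared this genotype and origin. Control cells were untreated and grown in high-glucose DMEM with serum, and starved cells were held in nutrient-deprived medium for 2 h. There were 8 samples in 4 groups of 2 (control IP, control input, starved IP, starved input), with a peak list for each of the 4 IP libraries. The labels do not say whether the replicates were separate cultures, so the spread between them may be technical.

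mTORC1 is a kinase complex that promotes translation and growth and holds back autophagy when nutrients are plentiful. Amino acids act on it through the Rag GTPases, which bring it to the lysosome surface. GATOR1 switches the Rags off, GATOR2 counters GATOR1, and folliculin with its partner acts on RagC and RagD. Growth factor and energy signals reach it through the TSC complex, which turns off Rheb, and through AMPK, the kinase that senses a falling energy charge. m6A is deposited on mRNA by the METTL3 methyltransferase complex, mostly within a short consensus with GAC at its core, and is known to be dense in long exons and near stop codons.

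The sequences below show candidate m6A sites in regions described below, since the peaks themselves are longer than a single site. Each is 25 nt of the transcribed strand, 5′ to 3′, from the mouse genome GRCm38 (mm10), around the GGAC nearest to the centre of a merged region, with GGAC in capitals. A match is a description of the sequence and not a mapped site. The first 4 lie in regions seen in all 4 libraries, of which the Fnip2 3′ UTR region is not shown. The next 3 lie in regions with a peak in both starved libraries and no control library. The next 4 lie in regions with a peak in both control libraries and no starved library. A merged region can be wider than the peak of a library. The Prkaa1 and Fnip2 windows lie outside the peak of control replicate 2. The Rictor 3′ UTR window of the control regions lies outside the peak of control replicate 1.
Fnip1, coding exon, chr11:54503435-54503459, + strand: ttcctcagcaGGACcagaggaattc
Fnip2, coding exon, chr3:79481297-79481321, − strand: gaaggaggatGGACcaacaaaccct
Prkaa1, 3′ UTR after the stop codon, chr15:5179056-5179080, + strand: gtttgcacagGGACtggaaaacgat
Rps6kb1, 3′ UTR, chr11:86502278-86502302, − strand: ttgcaactaaGGACaaattagcatg
Flcn, 3′ UTR, chr11:59791886-59791910, − strand: agtttaataaGGACgtagcttggaa
Rictor, 3′ UTR, chr15:6796552-6796576, + strand: gaacaaaacaGGACatgaagacgca
Prkag2, retained intron, chr5:24876833-24876857, − strand: ccattttgagGGACgtccatactga
Rictor, 3′ UTR, chr15:6797955-6797979, + strand: ctttggtcttGGACaataaaactgc
Rictor, retained intron, chr15:6763166-6763190, + strand: gaagtaatgtGGACagtgcttgcac
Rptor, first exon, chr11:119603833-119603857, + strand: gcctcttatgGGACtcggggaggaa
Rptor, 3′ UTR, chr11:119899329-119899353, + strand: aggactgacaGGACacggaactgca
3 more regions with a peak in both control libraries and no starved library held no GGAC, and the nearest match to a looser form of the motif (AGAC, GAAC or AAAC) is in capitals.
Mios, coding exon, chr6:8222565-8222589, + strand: ataaagaaagGAACggatgtagatg
Wdr59, 3′ UTR, chr8:111449408-111449432, − strand: aattaaccggAGACacataagtaat
Prkag2, 3′ UTR, chr5:24862940-24862964, − strand: gtgacacataAAACagtattgtcat

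The lists held from 8974 to 10103 peaks per library. Their values are the fold enrichment of IP over local input, a score that rises as the p-value falls and a false discovery rate in percent. No peak had a rate under 5%, and the lowest rate of a list ranged from 5.56% to 8.85%. The lists give no reads, so the depth is unknown and the lack of a peak does not show the lack of m6A. With 2 libraries against 2, the exact permutation test has 6 assignments and cannot go below p = 0.333, so no comparison between control and starved can pass the usual threshold. As a check of the label, 8 of 12 fibroblast markers carried a peak, while Col1a1 and Vim were without a peak. Of the markers of other cell types, 3 of 5 epithelial, 2 of 4 endothelial and 1 of 4 leukocyte genes carried a peak in at least 1 library, and Epcam, Cdh1, Pecam1, Cdh5 and Ptprc did not. A peak needs m6A as well as expression, so this check is partial.

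The complexes differed in how many of their listed genes carried an m6A peak. The share of all genes that carry a peak is not known, so these counts have no background. Every listed subunit or partner of the mTOR complexes (8 of 8), of AMPK (7 of 7, Stk11 included), of the folliculin complex (3 of 3) and of the S6K and 4E-BP group (4 of 4) had a peak in at least 1 library. For Mlst8, Prkaa2, Prkab2, Prkag1, Rps6kb2 and Eif4ebp2 this was 1 peak in 1 library. None of the 3 GATOR1 genes (Depdc5, Nprl2, Nprl3) did, nor did Tsc2, Rheb, Lamtor2, Lamtor4, Lamtor5 or Sec13. Between these ends stood the Rag-Ragulator group with 6 of 9 genes, GATOR2 with 4 of 5, KICSTOR with 2 of 2 listed genes, each in 1 library, and TSC-Rheb with Tsc1 alone of 3.

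Few of these genes carried peaks throughout. A peak was present in all 4 libraries for 8 of the 35 genes (22.9%), against 29.2% of all genes with a peak, and these were Rptor, Rictor, Tsc1, Fnip1, Fnip2, Prkaa1, Prkag2 and Rps6kb1. Another 8 genes had a peak in 3 libraries, 9 in 2 and 10 in 1. The grid of peak numbers by gene and library shows this split.

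**Figure D1:**
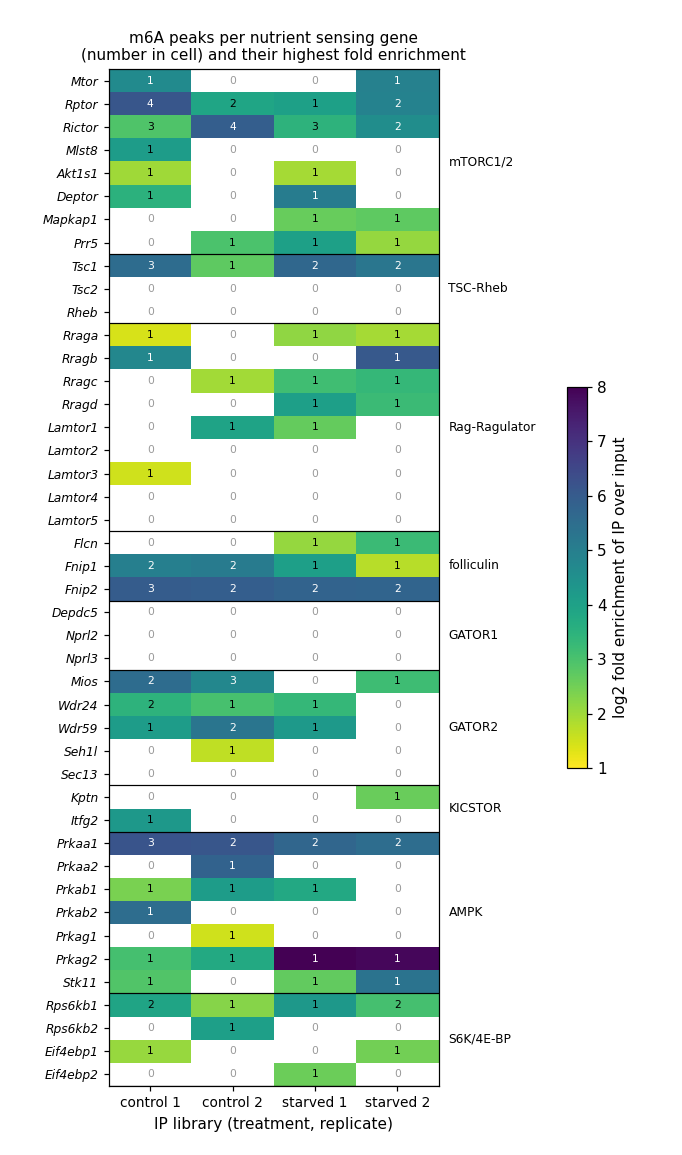
Number of m6A peaks (digits) and highest log2 fold enrichment of IP over input (colour) for each of the 44 genes (rows, by complex) in the 4 IP libraries (columns), white meaning no peak. The 3 GATOR1 rows are empty, whereas the 8 genes with a peak in every library include Rptor, Rictor, Fnip2 and Prkaa1.

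As many of the genes had a peak in starved as in control cells. The control libraries had peaks on 23 and 19 of the 44 genes and the starved libraries on 22 and 20, which gave 21 ± 2.83 against 21 ± 1.41 genes (SD, n = 2; difference 0, two-sided exact permutation p = 1). The number of peaks on them was 38 and 29 in control and 27 and 26 in starved cells. The means of 33.5 ± 6.36 and 26.5 ± 0.707 peaks differed by -7 (SD, n = 2; exact permutation p = 0.333), and without control replicate 1 the difference was -2.5. Among peaks with a false discovery rate under 20%, control libraries had 16 and 14 and starved libraries 17 and 14, and the difference turned to 0.5. All peaks together were also fewer in starved cells (9987 ± 164 against 9366 ± 554, SD, n = 2; difference -622, exact permutation p = 0.333). In bulk libraries, m6A on fewer cells and less of it per cell cannot be told apart.

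The peaks on these genes were about as enriched as other peaks. Their median fold enrichment was 12.5 and 15.4 in control cells and 13.6 and 11.1 in starved cells, beside 12.2, 12.3, 14.6 and 14.7 for all peaks. On the log2 scale the members' median was 3.80 ± 0.217 in control cells and 3.61 ± 0.213 in starved cells (SD, n = 2; difference -0.18, exact permutation p = 0.667). The median of all peaks stood 0.26 higher in starved libraries (exact permutation p = 0.333). The shift over the 2257 regions seen in all 4 libraries was smaller, with a median of 0.10.

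Counted over all peaks, GATOR2 differed most in peak number between control and starved cells among the complexes. It had 5 and 7 peaks in control libraries and 2 and 1 in starved libraries, that is 6 ± 1.41 against 1.5 ± 0.707 (SD, n = 2; difference -4.5, exact permutation p = 0.333). Under a false discovery rate of 20% the numbers were 2 and 2 against 0 and 0. AMPK had 7 and 6 peaks in control cells and 5 and 4 in starved cells (difference -2, exact permutation p = 0.333), but 4 and 3 against 3 and 3 under the 20% rate. The Rag-Ragulator group had more peaks in both starved libraries (4 and 4) than in both control libraries (3 and 2; difference 1.5, exact permutation p = 0.333), but overlapping numbers under the 20% rate (1 and 1 against 2 and 1). The other complexes overlapped between groups, with 11 and 7 against 8 and 7 peaks for the mTOR complexes, 3 and 1 against 2 and 2 for TSC-Rheb, 5 and 4 against 4 and 4 for the folliculin complex, 1 and 0 against 0 and 1 for KICSTOR, and 3 and 2 against 2 and 3 for S6K and 4E-BP. Under the 20% rate, however, TSC-Rheb had 0 and 0 peaks in control against 2 and 2 in starved libraries. This difference of 2 equals that of GATOR2 in size. S6K and 4E-BP had 1 and 1 against 2 and 2 (exact permutation p = 0.333 for this group and for TSC-Rheb). The 20% rate is a different score limit in each list, and its part in these shifts was not tested.

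**Figure D2:**
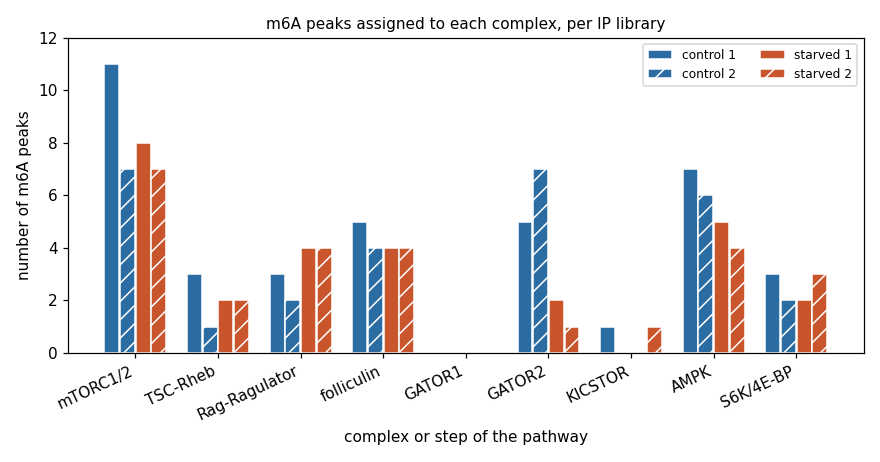
Number of m6A peaks (vertical axis) assigned to each complex in each of the 4 IP libraries (bars, control in blue and starved in orange, replicate 2 hatched). GATOR2 had 5 and 7 peaks in control cells and 2 and 1 in starved cells, and GATOR1 had none.

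Gene by gene, Fnip1 and Mios had fewer peaks in both starved than in both control libraries (2 of 35 genes, 5.71%), as did 7.56% of all genes. Flcn, Mapkap1 and Rragd had more (3 of 35, 8.57%, against 5.42% of all genes), and these were also the 3 genes with a peak in both starved libraries and no control library, a pattern seen in 3.19% of all genes. No member had the opposite pattern, which 4.56% of all genes showed. At the level of regions, 3 of 69 (4.35%) were seen in both starved libraries and not in control, against 3.20% of all regions. In 7 of 69 (10.1%) a peak was present in both control libraries and no starved library, against 4.15% of all regions. For Mapkap1 and Rragd the peaks of the 2 starved libraries lay at different places, so that no region of theirs is among the 3.

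By the false discovery rate, the regions found in the libraries of 1 group were unevenly supported. None of the 7 control regions had both peaks under a rate of 20%, so that their number under this limit was 0, whereas 2 of the 3 starved regions (Rictor and Prkag2) had both. The rates are not on 1 scale, however. A score at its limit of 3100 had a rate of 13.26% and 9.35% in the control libraries and of 10.11% and 7.52% in the starved libraries. Most regions were seen in a single library: 37 of 69 (53.6%), against 56.2% of all regions, of which 21 were in a control and 16 in a starved library. Another 9 regions were shared by 1 control and 1 starved library. A peak in all 4 libraries was present in 5 regions (7.25%), against 10.7% of all regions.

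**Figure D3:**
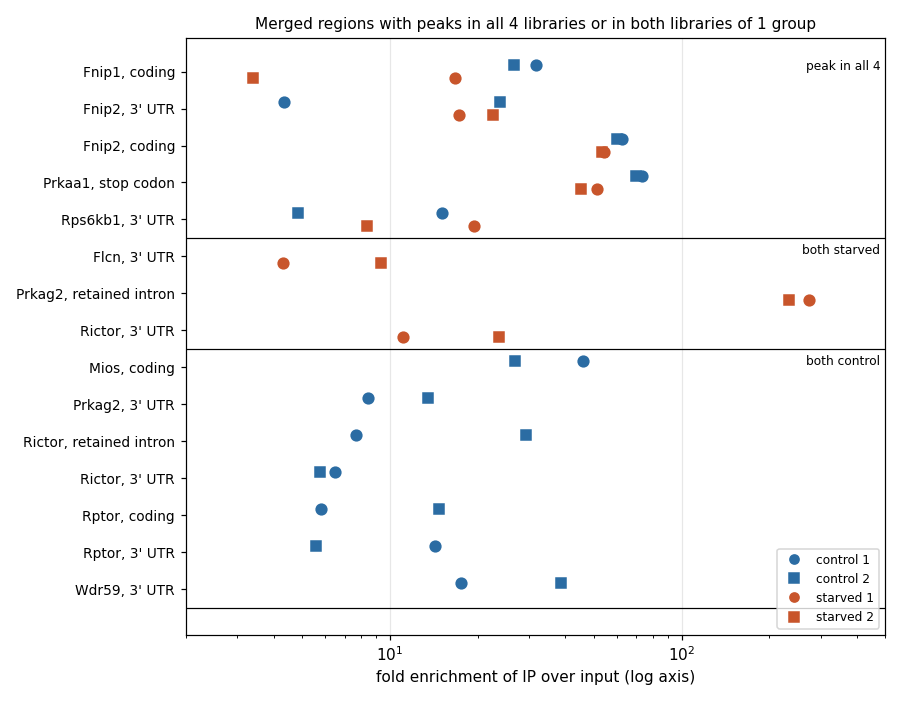
Fold enrichment of IP over input (log axis) of the merged regions seen in all 4 libraries (top), both starved libraries only (middle) or both control libraries only (bottom), as points for control 1, control 2, starved 1 and starved 2. Both starved points lie below both control points for the Fnip1 region, the Fnip2 coding region and the Prkaa1 region.

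The folliculin complex held 3 of the 5 regions seen in all 4 libraries. Folliculin (Flcn) and its binding partners Fnip1 and Fnip2 form the activator of GTP hydrolysis on RagC and RagD. The Fnip2 coding region (chr3:79480559-79481879) covered the whole of exon 14 of 18, 1321 nt long and with 12 GGAC. Its fold enrichment was 62.37 and 59.96 in control cells and 54.32 and 53.6 in starved cells, or 61.2 ± 1.7 against 54.0 ± 0.509 (SD, n = 2; log2 difference -0.18, exact permutation p = 0.333). The replicates of a group were close together here and the groups did not overlap. The peak of control replicate 2 (chr3:79481358-79481746) was, however, much shorter than those of the other libraries, so the values do not cover the same stretch.

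The Fnip1 region (chr11:54502967-54503675) also lay within a long coding exon, exon 14 of 18 with 1417 nt, and held 7 GGAC. Its fold enrichment was 31.61 and 26.76 in control cells but 16.69 and 3.4 in starved cells (29.2 ± 3.43 against 10.0 ± 9.4, SD, n = 2; log2 difference -1.95, exact permutation p = 0.333). The size of this difference rested on starved replicate 2, whose peak had a rate of 64.89% and a centre further upstream. Without that library the log2 difference was -0.80. Fnip1 had further peaks in the 3′ UTR in control libraries only, 7.95-fold in replicate 1 and 33.85-fold in replicate 2, at places 336 bp apart.

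The other Fnip2 region was a stretch of 2879 nt of the 3′ UTR (chr3:79456734-79459612) with values of 4.34, 23.85, 17.22 and 22.67 in control 1, control 2, starved 1 and starved 2. Control replicate 1 stood apart with the lowest value, and the groups overlapped. Flcn had a peak in the starved libraries only, 4.3-fold and 9.32-fold, at chr11:59791634-59792696, a region that spans the stop codon and reaches into the 3′ UTR. The false discovery rates of these Flcn peaks were 42.6% and 21.3%.

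Of the AMPK genes, Prkaa1, which encodes the catalytic subunit α1, had the most peaks. Its region at the stop codon (chr15:5178688-5179263, in the last of 9 exons) gave 73.01 and 69.77 in control cells and 51.29 and 45.25 in starved cells, with the score at its limit of 3100 in each of the 4. The means were 71.4 ± 2.29 and 48.3 ± 4.27 (SD, n = 2; log2 difference -0.57, exact permutation p = 0.333). All starved values lay below all control values, and the log2 difference ranged from -0.66 to -0.48 when each library in turn was left out. Relative to the median shift of 0.10 over shared regions the difference was -0.67. Together with the Fnip1 and Fnip2 coding regions, this made 3 of 5 shared regions with lower values in both starved libraries, against 18% of all shared regions, and 0 of 5 with higher values in both, against 22.9%.

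Prkaa1 had weaker peaks elsewhere, which varied between libraries. A region in exon 7 was found at 16.73-fold in control replicate 1 and 7.69-fold in starved replicate 2. Starved replicate 1 had a peak of 7.41-fold in exon 6, and peaks further into the 3′ UTR were seen at 19.71-fold in control replicate 1 and 3.49-fold in control replicate 2. Prkaa2, the gene of the other catalytic subunit, had a single peak (55.31-fold, 3′ UTR, control replicate 2).

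Prkag2, which encodes a nucleotide-binding γ subunit of AMPK, had peaks at different places in control and starved cells. Both starved libraries had a peak of 274.46-fold and 234.14-fold at chr5:24876704-24877026, the highest fold enrichments of all 120 peaks on these genes, both with a score of 3100. Its centre lay outside the exons of the coding transcripts and inside an exon of the retained-intron transcript ENSMUST00000139698.1. Neither control library had a peak there, and the lists hold no input coverage against which to read so high a ratio. In the 3′ UTR (chr5:24862735-24863159) the control libraries had a peak of 8.4-fold and 13.53-fold, and neither starved library did. The control peaks had rates of 41.2% and 21.0%, whereas the starved peaks had rates of 10.1% and 7.52%.

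The remaining AMPK genes gave peaks in fewer libraries. Prkab1, a scaffolding β subunit, had a 3′ UTR region at 5.29, 17.38 and 13.59-fold in control 1, control 2 and starved 1, and its paralog Prkab2 had a peak in control replicate 1 (44.77-fold). Prkag1 had a weak peak in control replicate 2 (2.85-fold). Stk11, which encodes LKB1, the kinase that activates AMPK, had a region across its start codon (chr10:80116080-80116907) with 16 GGAC. Its values were 7.49 in control replicate 1, 6.42 in starved replicate 1 and 40.71 in starved replicate 2.

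Among the mTOR complex genes, Rptor and Rictor, the defining subunits of mTORC1 and mTORC2, had peaks in every library. Rictor had 2 neighbouring 3′ UTR regions, each found in the libraries of 1 group. The region next to the stop codon (chr15:6796162-6796885) had peaks of 11.11-fold and 23.67-fold in the starved libraries only, with rates of 13.3% and 7.52%. The region 533 bp further on (chr15:6797419-6798309) had peaks of 6.47-fold and 5.79-fold in the control libraries only, with rates of 26.4% and 38.8%. A coding region in exon 31 of 38 was found in all libraries but starved replicate 2, at 6.25, 17.2 and 6.33-fold. Rictor also had a region in a retained intron (chr15:6763096-6763448) in the control libraries only, at 7.68-fold and 29.38-fold, with rates of 68.1% and 20.6%.

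Rptor likewise had regions in both control libraries only, at 2 ends of the transcript. The region in exon 1 (chr11:119603675-119603971) spans the start codon and gave 5.83-fold and 14.76-fold, with rates of 44.9% and 15.4%. The region at the end of the 3′ UTR (chr11:119899156-119899516) gave 14.29-fold and 5.58-fold, with rates of 19.6% and 23.7%. A larger 3′ UTR region ended 62 bp before it and gave 19.22-fold in control replicate 1 and 16.23-fold and 29.68-fold in the starved libraries, so that every library had a peak within this stretch of the 3′ UTR.

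The kinase itself, Mtor, had a single region, at the end of the coding sequence and in the 3′ UTR (24.98-fold in control replicate 1, 30.5-fold in starved replicate 2). Prr5, a subunit of mTORC2, had a stop codon region at 7.91, 16.22 and 4.32-fold in control 2, starved 1 and starved 2. Mapkap1, another mTORC2 subunit, had peaks in the starved libraries only, 6.12-fold in replicate 1 and 6.63-fold in replicate 2, which lay 84 bp apart near the stop codon. Deptor, an inhibitor of both complexes, had 3′ UTR peaks at separate places in control replicate 1 (11.43-fold) and starved replicate 1 (33.07-fold). Akt1s1, an mTORC1 inhibitor, had a weak coding region (3.99-fold in control 1, 3.86-fold in starved 1), and Mlst8, a subunit of both complexes, had a peak in control replicate 1 (17.44-fold).

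Tsc1, a scaffold of the complex that holds Rheb inactive, had 6 regions, none of them in more than 2 libraries. Those in 1 library each reached 45.74-fold and 11.18-fold in control replicate 1, 50.66-fold in starved replicate 1 and 38.22-fold in starved replicate 2. The 2 shared regions paired 1 control and 1 starved library (14.48-fold and 25.24-fold, and 6.65-fold and 14.66-fold). Tsc1 was therefore a gene with a peak in every library without a region common to them. Tsc2, its catalytic partner, and Rheb carried no peak.

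The Rag GTPases had peaks more often than the Ragulator subunits, with 4 of 4 genes against 2 of 5. Rraga, which has a single exon, had a region at 2.69, 4.46 and 3.86-fold in control 1, starved 1 and starved 2. Rragb had a 5′ UTR region at 27.19-fold in control replicate 1 and 66.37-fold in starved replicate 2. Rragc had a 3′ UTR region at 3.94-fold in control replicate 2 and 8.88-fold in starved replicate 1, and a peak across its start codon at 10.12-fold in starved replicate 2. Rragd had a peak in each starved library, at the stop codon in replicate 1 (16.64-fold) and far into the 3′ UTR in replicate 2 (9.34-fold). Of the Ragulator, which anchors the Rags on the lysosome, Lamtor1 had peaks of 15.45-fold in control replicate 2 and 6.34-fold in starved replicate 1, and Lamtor3 a peak of 2.83-fold in control replicate 1.

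The GATOR2 peaks were mostly those of Mios, Wdr24 and Wdr59. Mios had a short region in exon 5 of 12 (chr6:8222461-8222715) in the control libraries only, at 46.11-fold and 26.94-fold, and another coding region at 13.64, 8.56 and 9.06-fold in control 1, control 2 and starved 2. Wdr24 had a region in exon 3 at 11.13, 8.25 and 10.09-fold in control 1, control 2 and starved 1. Wdr59 had a 3′ UTR region (chr8:111449074-111449698) in the control libraries only, at 17.62-fold and 38.76-fold, and a region 441 bp nearer the stop codon at 20.9-fold in control replicate 2 and 18.42-fold in starved replicate 1. The peaks found in both control libraries only had rates of 14.0% and 20.5% in Mios and of 29.7% and 11.6% in Wdr59. All 3 genes had peaks in both control libraries, in contrast to Seh1l with 1 peak (3.16-fold, control replicate 2). The KICSTOR genes Itfg2 (19.26-fold, control replicate 1) and Kptn (6.04-fold, starved replicate 2) had 1 peak each.

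GATOR1 needs a qualification, since peaks were assigned by the name in the list. 3 peaks named for the neighbouring gene Mpg overlapped exons of Nprl3 as well, at chr11:32232100-32232454 in control replicate 2 (41.47-fold) and at nearly the same place in starved replicates 1 and 2 (3.84-fold and 26.45-fold). Likewise a peak of 10.68-fold named for Dos overlapped an exon of Stk11 in starved replicate 1. The lists give no strand, so these peaks could belong to either gene.

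Of the mTORC1 substrates, Rps6kb1, the gene of S6 kinase 1, had a 3′ UTR region (chr11:86502006-86502962) in all libraries. Its values were 15.12 and 4.85-fold in control and 19.44 and 8.38-fold in starved cells. The peaks of control replicate 2 and starved replicate 2 reached across the stop codon. Those of control replicate 1 and starved replicate 1 began after it, so the values do not cover the same stretch. The groups overlapped, and the replicates of a group lay further apart than the groups did (9.98 ± 7.26 against 13.9 ± 7.82, SD, n = 2; exact permutation p = 0.667). Eif4ebp1, the gene of a translation repressor that mTORC1 holds inactive, had a 3′ UTR region at 4.23-fold in control replicate 1 and 5.63-fold in starved replicate 2. Its paralog Eif4ebp2 had a peak in starved replicate 1 (5.96-fold) and Rps6kb2 in control replicate 2 (16.41-fold).

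The peaks on these genes were shared out along the transcript towards the 3′ UTR. Of the 111 peaks placed on a coding transcript, 57 were centred in the 3′ UTR (51.4%, against 36.5% of all placed peaks), 40 in the coding sequence (36.0%, against 46.2%), 8 within 100 nt of the stop codon (7.21%, against 12.5%) and 6 in the 5′ UTR (5.41%, against 4.76%). Of the 69 regions, 41 lay in the last exon, and 18 spanned the stop codon, but these shares were not counted over all regions. Peaks around the stop codon had the highest median fold enrichment of the transcript segments, 31.3, beside 21.3 in the 5′ UTR, 11.4 in the 3′ UTR and 11.1 in the coding sequence, but 4 of the 8 were the peaks of Prkaa1. The stop codon share was 4.79 ± 1.54% in control cells and 10.1 ± 3.4% in starved cells (SD, n = 2; difference 5.3 points, exact permutation p = 0.333), and the difference turned to -3.54 points under a rate of 20%.

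**Figure D4:**
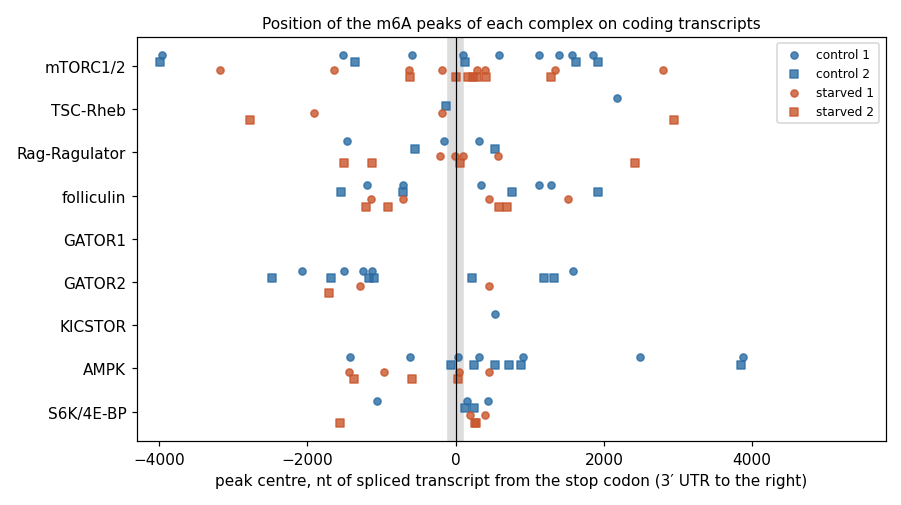
Distance of each placed m6A peak centre from the stop codon in nt of spliced transcript (horizontal axis, 3′ UTR to the right), by complex (rows), for the 4 IP libraries (symbols); the grey band is the window of 100 nt on either side of the stop codon. Most peaks of the S6K/4E-BP group lie just after the stop codon, whereas those of GATOR2 lie mainly in the coding sequence.

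The 9 remaining peaks, in 7 regions of Rptor, Rictor, Tsc1, Prkag2 and Kptn, had their centres outside the exons of coding transcripts. In 9 of 9 the centre lay in an exon of a transcript annotated as a retained intron. Peaks outside the exons of coding transcripts were about as common here (7.50% of 120) as among all peaks (7.11% of 38705). Of such peaks over all genes, 951 of 2753 lay in retained introns. The 9 peaks include those of highest fold enrichment of Prkag2, of Rptor (69.49-fold, control replicate 1) and of Rictor (59.75-fold, control replicate 2).

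The m6A consensus was about as frequent in the peaks of these genes as elsewhere. GGAC, searched on the transcribed strand in 200 nt of spliced transcript at the peak centre, occurred in 22 of 34, 18 of 27, 17 of 26 and 20 of 24 windows in control 1, control 2, starved 1 and starved 2. The shares of 64.7%, 66.7%, 65.4% and 83.3% stand beside 62.1% to 64.7% of the windows of all peaks. The looser forms AGAC, GAAC and AAAC together occurred in 91.5% to 92.4% of all windows, so that a match to them says little. Over their whole length, 52 of the 62 regions on exons of coding transcripts (UTRs included) held GGAC. The other 10 did not, the Mios and Wdr59 regions shown above among them. The regions differ in length and the share over all regions was not counted, so the 52 have no background.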

How the data were processed

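MeRIP-seq was performed on control and starved MEFs, with samples grouped by their titles. Per the labels and the study's methods, the authors trimmed reads, aligned them to mm10 with HISAT2 2.0.4, called peaks in each IP library with MACS2 against its own input, and kept peaks overlapping mRNA exons. The deposited fold enrichment is a ratio of IP over local input, the deposited score is the negative log10 of the p-value times a constant (from 50.01, with a limit of 3100), and the authors' false discovery rate is a percent. Column names match an older MACS, so the caller's version is uncertain. The authors' own comparison table (fold changes and p-values of differential sites between groups) was not used. The number of per-sample columns without a mapped sample was 0.

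Peaks overlapping by 1 bp were merged over the 4 lists, and a region took the highest fold of each library. Peak centres were placed on GENCODE M21 coding transcripts (GRCm38), since the lists give no summits. Group means were compared by two-sided exact permutation of the libraries on counts, medians of log2 fold or percent. Alternatives were a minimum fold of 4, a false discovery rate under 20%, a 50% overlap, lists shortened by score to equal size (8974 peaks, as in the shortest list), genes assigned by annotation in place of the deposited names, a window of 200 nt at the stop codon, a replicate block, and leaving out each library. Every gene of the set was described, and every region with a peak in all 4 libraries or in both libraries of 1 group was given with its values. Members, gene lists and tests were chosen with earlier results of these data known. Python 3.11.15, numpy 2.4.6, pandas 2.3.3, scipy 1.17.1, matplotlib 3.10.9 and samtools 1.23.1 were used. On simulated data of 5000 regions, 15 of 15 quantities were recovered. Depth is unknown, so no counting error could be given.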

Additional observations from a re-analysis of the deposited data

How the results depend on the processing

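With a false discovery rate under 20%, the difference in peaks on the 44 genes changed sign from -7 to 0.5 and that of the stop codon share from 5.3 to -3.54 points (exact permutation p = 1 and 0.667). The number of regions in both control libraries only went from 7 to 0. The cause was not tested, and a rate of 20% is a different score limit in each list. The difference in genes with a peak, 0 as reported, was 1.5 at a minimum fold of 4 and at equal peak numbers per library, 2 under the 20% rate and 0.5 with genes assigned by annotation. The peak difference was -4.5 at a minimum fold of 4, -4 at equal peak numbers (exact permutation p = 1) and -6 by annotation, and the median log2 difference ranged from -0.31 (equal peak numbers) to -0.10 (20% rate). The stop codon share difference stayed positive at a minimum fold of 4, at equal peak numbers, by annotation and with a 200 nt window, and the other region counts moved by at most 1 under all settings except leaving out a library. When each library in turn was left out, the remaining library stood for its group. The difference in genes with a peak then ranged from -2 to 2, in peaks from -11.5 to -2.5, in median log2 fold from -0.34 to -0.03 and in stop codon share from 2.9 to 7.71 points. Regions of starved libraries only numbered 4 to 11 and of control libraries only 8 to 19, and shared regions with higher starved values 0 to 2 and with lower values 3 to 4. A replicate block gave the same differences (0, -7, -0.18 and 5.3) with 0.5 as its smallest p. Whether the replicate numbers pair the samples is not known. Over 2257 shared regions the replicate differences of the groups correlated with r = -0.017. This value shows no pattern of replicate differences across regions that is common to both groups. A correlation does not see a replicate shift that is the same for all regions, and it cannot show how the samples were prepared. Depth is not in the lists, and peak number, score and rate depend on it.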

Other observations

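A further 39 genes of the pathway that are outside the set (upstream sensors, cofactors and downstream effectors) gave peaks on 29 genes, with 19, 18, 19 and 19 of them in control 1, control 2, starved 1 and starved 2. Kics2, counted among the 10 without a peak, could not be matched to a gene identifier and was looked for by symbol alone. Of their 51 merged regions, 9 had a peak in all 4 libraries, 2 in both starved libraries only and 2 in both control libraries only. Over all merged regions these patterns made up 10.7%, 3.20% and 4.15%. Sesn1 and Sesn2 encode Sestrins, which restrain GATOR2 when leucine is scarce. A Sesn1 coding region had 157.64 and 257.83-fold enrichment in control and 112.58 and 186.8-fold in starved libraries, with overlapping groups. The groups also overlapped in a Sesn2 3′ UTR region, with 9.03 and 11.86-fold in control and 12.37 and 6.59-fold in starved libraries. Sesn1 also had a 3′ UTR region in the starved libraries only (17.97-fold and 31.25-fold), as did Lpin1, which encodes a phosphatidate phosphatase (5.13-fold and 4.49-fold). In the control libraries only, Grb10, which encodes an adaptor that restrains insulin signalling, had a 3′ UTR region at 3.14-fold and 7.99-fold, and Cab39l at 7.48-fold and 10.83-fold.

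Of the 9 shared regions, 4 had higher values in both starved than in both control libraries and 2 had lower values. Among all shared regions 22.9% had higher and 18% had lower values in both starved libraries. Prr5l, a paralog of Prr5, had 9.14 and 10.14-fold enrichment in control and 31.39 and 17.3-fold in starved libraries. Eef2k, which encodes the kinase that inhibits translation elongation, had 4.21 and 8.11-fold in control and 28.92 and 10.37-fold in starved libraries, and Cab39, an LKB1 cofactor, had 8.73 and 3.06-fold against 9.75 and 10.2-fold. Slc7a5, the gene of a leucine transporter, appeared on both sides. Its coding region had 4.25 and 3.48-fold in control and 9.96 and 4.42-fold in starved libraries, whereas its 3′ UTR region had 46.06 and 47.0-fold against 36.06 and 12.46-fold. Rps6, a ribosomal protein phosphorylated by S6 kinases, had a stop codon region at 10.46 and 11.47-fold in control and 7.88 and 4.76-fold in starved libraries. With 2 libraries a group, none of these differences could pass an exact permutation test.

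Among markers of other cell types, 3 of 5 epithelial genes, 2 of 4 endothelial genes and 1 of 4 leukocyte genes had a peak in at least 1 library. The epithelial list had peaks on 1, 2, 1 and 0 genes in control 1, control 2, starved 1 and starved 2, the endothelial list on 1 gene in each library, and the leukocyte list on 1 gene in control replicate 2.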
